A study of Homo sapiens with 6 samples.

Results

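The genes described here are 40 genes of the Golgi apparatus that encode its structural proteins, its vesicle coats and tethers, and the enzymes and sugar carriers of glycosylation. They were chosen by name, and 39 of them had a probe set annotated to that gene alone. The brightest probe set of a gene, by its mean over all arrays, stood for it. After a filter on dim probe sets 36 of the 40 genes were tested, among 13407 genes tested in all. COG8 was read only by 2 probe sets that it shares with PDF, and MAN1A2, MAN2A1 and MGAT5 were too dim to pass, with levels below the 40th percentile of their array on each array.

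RNA came from SH-SY5Y, an established human neuroblastoma line with noradrenergic features. There were 3 arrays of untreated cells and 3 of cells exposed to 100 µM manganese for 24 h, a dose that the labels state as a fraction of the median lethal concentration. Both groups were grown in the same serum-containing medium, and they are compared here for the transcripts of the Golgi. The labels call the arrays biological replicates but do not say that the cultures were started separately, so the p-values measure the spread between these arrays. The line's own markers were bright on each array, where the 11 measured of 12 noradrenergic markers lay between 7.43 and 13.2 on the log2 scale. Of the markers of mesenchymal, glial, blood and endothelial cells 12 passed the filter on dim probe sets and 0 of all markers passed the test described below. Of the 11 noradrenergic markers 8 were lower, beside 6148 of all 13407 genes tested. The largest differences were in STMN2 (-0.71, limma adjusted p = 0.297) and ISL1 (-0.58, limma adjusted p = 0.351). In both the first control array (control 1) was the highest of all, and against control 2 alone the changes were -0.27 and -0.26. The summed log2 level of the 11 noradrenergic markers was 122.7 to 124.1 in control and 121.9 to 122.3 in manganese. Its part in the results was not tested. Of the 7 mesenchymal markers tested 4 were lower, FN1 by -0.49, and 3 higher, VIM by 0.77 (limma adjusted p = 0.152). Their summed level was 47.9 to 50.1 in control and 48.5 to 49.2 in manganese. Control 1 was the highest array for FN1 but not for VIM, and against control 2 alone they were at 0.12 and 0.75. PTPRC, CDH5 and COL3A1, of blood, endothelial and mesenchymal cells, were too dim to be tested. Others of the same lists passed the filter, among them CD68 (5.63 to 6.03), PECAM1 (5.68 to 6.03) and the bright TWIST1 (11.87 to 12.12).

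The Golgi apparatus receives new proteins and lipids from the endoplasmic reticulum, remodels their sugar chains and sorts them onward. Golgins and stacking proteins hold its cisternae together, the COPI coat carries resident enzymes back against the flow of cargo, and the COG complex tethers those carriers to their target membranes. Many Golgi glycosyltransferases need manganese as a cofactor, and the metal is pumped into the lumen from the cytosol. Transcript levels are a different quantity from Golgi structure or enzyme activity, neither of which was measured here.

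No Golgi gene changed past the threshold, a limma p of 0.05 after Benjamini-Hochberg adjustment over all genes, at which 0.142% of all genes tested were called. The smallest adjusted p among the 36 was 0.333, for MAN2A2, a mannose-trimming enzyme. At an unadjusted p under 0.05 there were 3 of 36 (8.33%), all lower in manganese, against 12.8% of all genes tested in either direction and 6.85% lower. Over all 13407 genes tested 1719 were at that level. Without control 2 the Golgi count was 11, and 3010 of all genes were then at that level. The Golgi count was 1 without control 3 (1223 of all genes) and 1 without manganese 1 (832 of all genes). It was 0 without manganese 2 (1070 of all genes) and 2 without manganese 3 (1211 of all genes). The log2 changes, manganese minus control, ran from -0.49 for the galactosyltransferase gene B4GALT5 to 0.32 for the branching enzyme gene MGAT2. Their 95% intervals lay within 2-fold in both directions for 35 of the 36 genes, the exception being COPB2 with a lower bound of -1.03. They lay within 1.5-fold for 24 genes. In RNA from whole cultures, fewer cells that express a gene and less of its RNA per cell cannot be told apart.

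Most of the small differences pointed downward. Of the 36 genes 25 were lower and 11 higher in manganese (30.6% higher), whereas 54.1% of all genes tested were higher. The median change was -0.08 for the Golgi genes and 0.02 for all genes. In 7 genes (19.4%) the 3 manganese arrays all lay below the 3 control arrays, against 9.26% of all genes, and in 0 they all lay above, against 10.5%. The 7 were GOLGA4, GORASP1, COG2, COG7, MAN2A2, B4GALT5 and ST6GAL1.

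The size of this direction depended on which control arrays were used. Control 1 correlated with the other arrays at r = 0.967 to 0.981 across genes, which are not independent replicates, while each of the others had a best partner at 0.992 or more. Foreign poly(A) RNA that is spiked into each sample before labelling is read by 12 probe sets, which averaged 6.04 in control 1 and 5.83 in control 3 on the log2 scale. They averaged 7.59 in control 2 and between 7.60 and 7.75 in the manganese arrays. Control 1 was the highest of the 6 arrays for 17 of the 36 Golgi genes (47.2%), against 27.9% of all genes. All 17 were lower in manganese, but picking genes by a high control array itself favours that sign. Without control 1 the Golgi median was -0.05 with 15 genes higher (41.7%), while the median of all genes was 0.00011 with 6706 of 13407 higher, so a smaller downward gap remained. In that setting 4 Golgi genes (11.1%) had an unadjusted p under 0.05, against 14.3% of all genes. Against control 2 alone, which also leaves out control 3, 18 were higher and 18 lower. The median was then 0.01 for the Golgi genes and 0.01 for all genes. Control 2 had the spike-ins nearest to those of manganese. It also had the lowest Golgi levels of the controls. The median deviation from the gene means was -0.08 in control 2, 0.16 in control 1 and 0.06 in control 3. Using control 2 alone therefore moves the Golgi changes upward by itself, and neither control 1 nor control 3 was used alone. Control 3 was the highest array for 7 of the 36 genes and control 2 for 1. What set control 1 apart, and its part in the direction, was not tested.

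**Figure D1:**
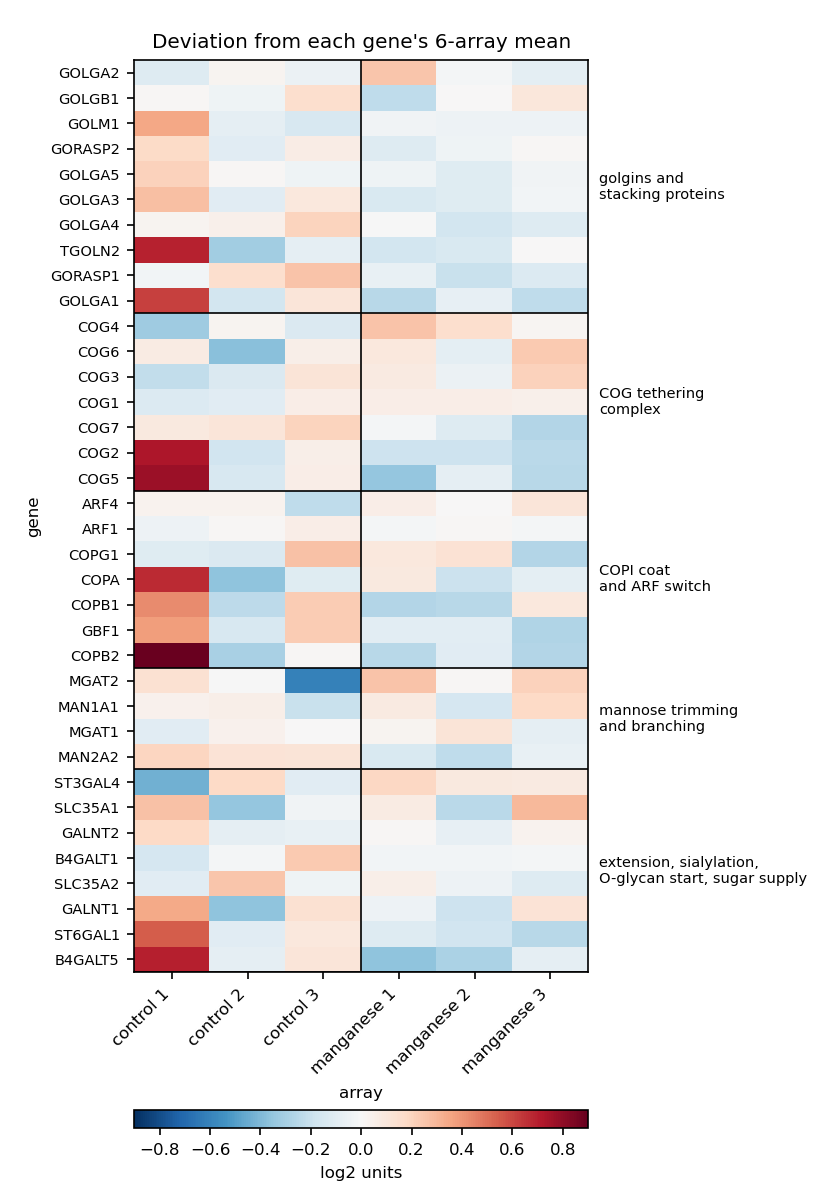
Each row is 1 of the 36 Golgi genes and each column 1 array, and the colour is the deviation of the log2 signal from the gene's mean over the 6 arrays. Red cells gather in the column of control 1, which was the highest array for 17 genes, and are strongest for COPB2, COG5, COG2, TGOLN2, COPA and B4GALT5.

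**Figure D2:**
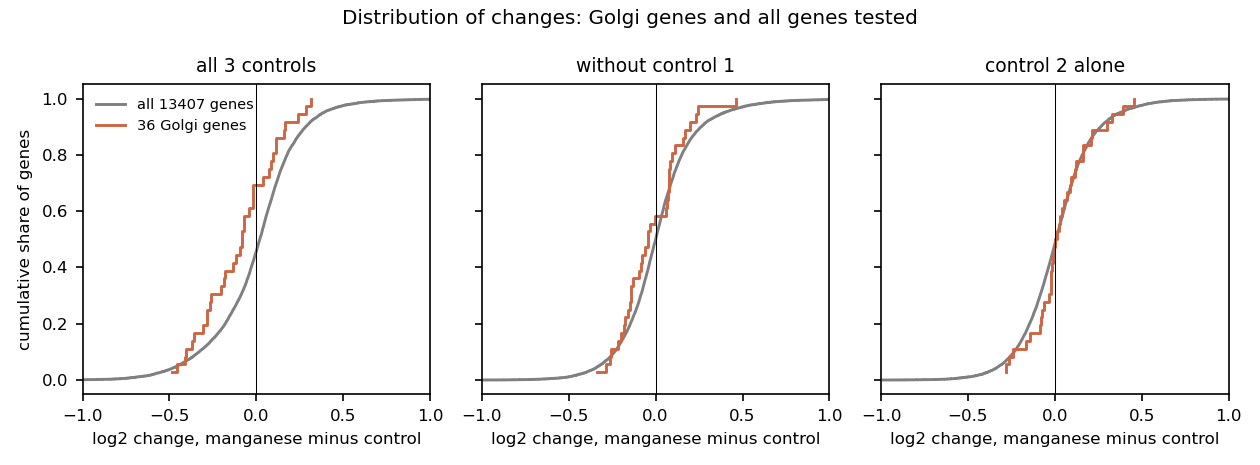
Cumulative share of genes (vertical axis) against the log2 change (horizontal axis) for the 36 Golgi genes and all 13407 genes tested, with all 3 controls, without control 1 and against control 2 alone. The curve of the Golgi genes lies to the left of the other with all controls, at medians of -0.08 and 0.02. The curves meet at 0.01 and 0.01 against control 2 alone, which also leaves out control 3.

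The promoters of these genes were searched for 3 motifs, which the choice by name did not use. Of the 40 genes 36 had a promoter in the RefSeq table (GRCh38.p14), which covers 250 bases before to 50 after each start, and GOLGA4, COG7, ARF4 and MAN1A2 were not in it. The motif ACGTGGC, known as the Golgi stress element and bound by the transcription factor TFE3, was searched on both strands. It occurred in promoters of 9 of the 36 genes (25%) and of 5.28% of the array-tested genes found in the table. By promoter, it was found in 10 of 59 (16.9%), in 3.88% of the promoters of array-tested genes and in 3.22% of all 35116 promoters. TGACGTCA, the cAMP response element, was found in 0 of the 59 promoters, in 2.62% of those of array-tested genes and in 1.85% of all. The endoplasmic reticulum stress element is CCAAT and CCACG with any 9 bases between. It was found in 0 of the 59, in 0.109% of those of array-tested genes and in 0.0769% of all. A match is only a run of letters, and no binding was measured. The 9 windows are shown to let the matches be compared, with 15 bases on each side, read 5′ to 3′ on the gene's strand. Capitals mark the motif, which appears as GCCACGT where it lies on the other strand:
GOLGA1, chr9:124941243-124941279, minus strand: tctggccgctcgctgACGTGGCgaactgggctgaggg
GOLGA3, chr12:132828840-132828876, minus strand: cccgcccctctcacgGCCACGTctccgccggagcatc
GOLGA5, chr14:92794110-92794146, plus strand: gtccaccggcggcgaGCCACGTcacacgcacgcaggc
GORASP2, chr2:170929228-170929264, plus strand: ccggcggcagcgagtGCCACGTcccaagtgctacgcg
COG3, chr13:45464837-45464873, plus strand: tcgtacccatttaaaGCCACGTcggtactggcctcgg
COPB2, chr3:139389744-139389780, minus strand: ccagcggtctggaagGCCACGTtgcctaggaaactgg
COPG1, chr3:129249583-129249619, plus strand: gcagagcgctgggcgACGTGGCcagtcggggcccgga
ARF1, chr1:228082679-228082715, plus strand: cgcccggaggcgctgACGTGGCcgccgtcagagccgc
MGAT1, chr5:180802823-180802859, minus strand: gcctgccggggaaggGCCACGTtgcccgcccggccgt
Counted from the start, the match began at -14 in ARF1, -8 in COPG1 and -10 in GORASP2, and farther out at -181 in GOLGA1 and -180 in GOLGA5. Of the 9 genes with a match 7 were lower and 2 higher in manganese, with a median change of -0.09 and a range from -0.41 to 0.16. The 24 tested genes whose listed promoters lacked it had a median of -0.08, with 16 lower and 8 higher. TFE3 itself differed by -0.06 and did not pass the limma test (adjusted p = 0.863).

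Among the golgins and stacking proteins 9 of 10 genes were lower, none past the threshold, with a median of -0.15. Without control 1 there were 7 of 10 lower, with a median of -0.07, and against control 2 alone, which also leaves out control 3, 5 were higher and 5 lower. GORASP1, also called GRASP65, links cisternae into stacks on the cis side together with the golgin GOLGA2. GORASP1 read 6.26, 6.43 and 6.54 on the control arrays 1 to 3 and 6.21, 6.08 and 6.16 on the manganese arrays. Its groups did not overlap, but the lowest control and the highest manganese array were close. The log2 change was -0.26 with an SE of 0.11 (limma adjusted p = 0.401), and against control 2 it was -0.28. Its 4 passing probe sets ranged from -0.26 to 0.19, so they did not share a sign.

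GOLGA4 and GOLGA1 encode long coiled-coil golgins of the trans-Golgi that capture incoming carriers. GOLGA4 read 6.51, 6.53 and 6.68 in control and 6.48, 6.32 and 6.37 in manganese, and its lowest control lay just above its highest manganese array. Its change was -0.18 (SE 0.11, limma adjusted p = 0.494), and all 4 passing probe sets were negative, from -0.18 to -0.09. GOLGA1 read 7.03, 6.25 and 6.53 in control and 6.16, 6.34 and 6.18 in manganese. Control 1 was high and control 2 lay inside the manganese range. Its change was -0.37 (SE 0.19, limma adjusted p = 0.444) with all controls and -0.02 against control 2.

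TGOLN2, a protein that cycles between the trans-Golgi network and the cell surface, showed the same array pattern. It read 9.50 in control 1, 8.49 in control 2 and 8.73 in control 3, and 8.65, 8.67 and 8.81 in manganese. Its change was -0.20 with all controls and 0.21 against control 2. GOLGA2, the cis-Golgi partner of GORASP1, was the only gene of this role that was higher, with a change of 0.10 (95% interval -0.19 to 0.38). GORASP2, the other stacking protein, differed by -0.09, the giantin gene GOLGB1 by -0.08, and GOLM1, a membrane protein of the cis-Golgi, by -0.08. The golgin genes GOLGA3 and GOLGA5 differed by -0.18 and -0.12.

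The COG complex, 8 subunits in 2 lobes, did not move in 1 direction. Of the 7 subunits measured, COG1, COG3, COG4 and COG6 were higher and COG2, COG5 and COG7 lower, and none passed. COG7 read 6.08, 6.10 and 6.19 in control and 5.97, 5.88 and 5.72 in manganese, without overlap. The change was -0.27 (SE 0.11, unadjusted p = 0.0419, limma adjusted p = 0.374) with all controls and -0.24 against control 2, so its size did not rest on control 1. COG4 read 10.05, 10.40 and 10.25 in control and 10.63, 10.53 and 10.39 in manganese, and its groups overlapped only in that control 2 lay just above manganese 3. Its change was 0.29 (SE 0.13, limma adjusted p = 0.405), and its 4 passing probe sets gave 0.15 to 0.29. Control 1 was the lowest array for COG4, and its change was 0.20 without control 1 and 0.12 against control 2.

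COG2 and COG5 had the largest drops of the complex, and control 1 was the highest array in both. COG2 read 8.22, 7.32 and 7.54 in control and 7.30, 7.30 and 7.24 in manganese, where control 2 lay just above all manganese arrays. COG5 read 5.96, 5.05 and 5.25 in control and 4.85, 5.11 and 4.94 in manganese. Their changes were -0.41 and -0.45 with all controls, -0.15 and -0.18 without control 1, and -0.03 and -0.08 against control 2. COG6, at 4.31 in control, was near the 40th percentile of the signal (4.37 to 4.40), so background limits its value of 0.17.

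In the COPI coat and its ARF switch 6 of 7 genes were lower with all controls, and none passed. Without control 1 there were 5 of 7 lower, with a median of -0.06, and against control 2 alone, which also leaves out control 3, 5 of the 7 were higher. COPB2, a subunit of the outer coat layer, read 7.23, 6.05 and 6.36 in control and 6.09, 6.24 and 6.08 in manganese. COPA, its partner in that layer, read 9.22, 8.19 and 8.44 in control and 8.64, 8.36 and 8.46 in manganese. In both genes control 1 stood far above the other 5 arrays, and control 2 was the lowest of all. Their changes were -0.41 and -0.13 with all controls and 0.09 and 0.30 against control 2.

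GBF1, the exchange factor that loads ARF proteins with GTP at the cis-Golgi, read 5.93, 5.42 and 5.79 in control and 5.47, 5.46 and 5.29 in manganese. Control 2 lay inside the manganese range, and its change was -0.31 (SE 0.15, limma adjusted p = 0.428) against -0.01 with control 2 alone. Its other passing probe set gave 0.17. COPB1, a subunit of the inner coat layer, read 7.90, 7.24 and 7.70 in control and 7.21, 7.22 and 7.57 in manganese, with overlapping groups and a change of -0.28 (SE 0.19, limma adjusted p = 0.540). COPG1, another inner subunit, differed by -0.02. ARF1, the small GTPase that recruits the coat, was nearly level on all arrays, at 12.05, 12.11 and 12.16 in control and 12.08, 12.10 and 12.08 in manganese. The change of ARF1 was -0.02 with a 95% interval of -0.24 to 0.21. ARF4, a related GTPase known as a target of the Golgi stress response through CREB3, read 10.82, 10.82 and 10.56 in control and 10.84, 10.79 and 10.90 in manganese. The change of ARF4 was 0.11 (-0.15 to 0.38), and CREB3 differed by 0.28 (limma adjusted p = 0.517) and by 0.01 against control 2.

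**Figure D3:**
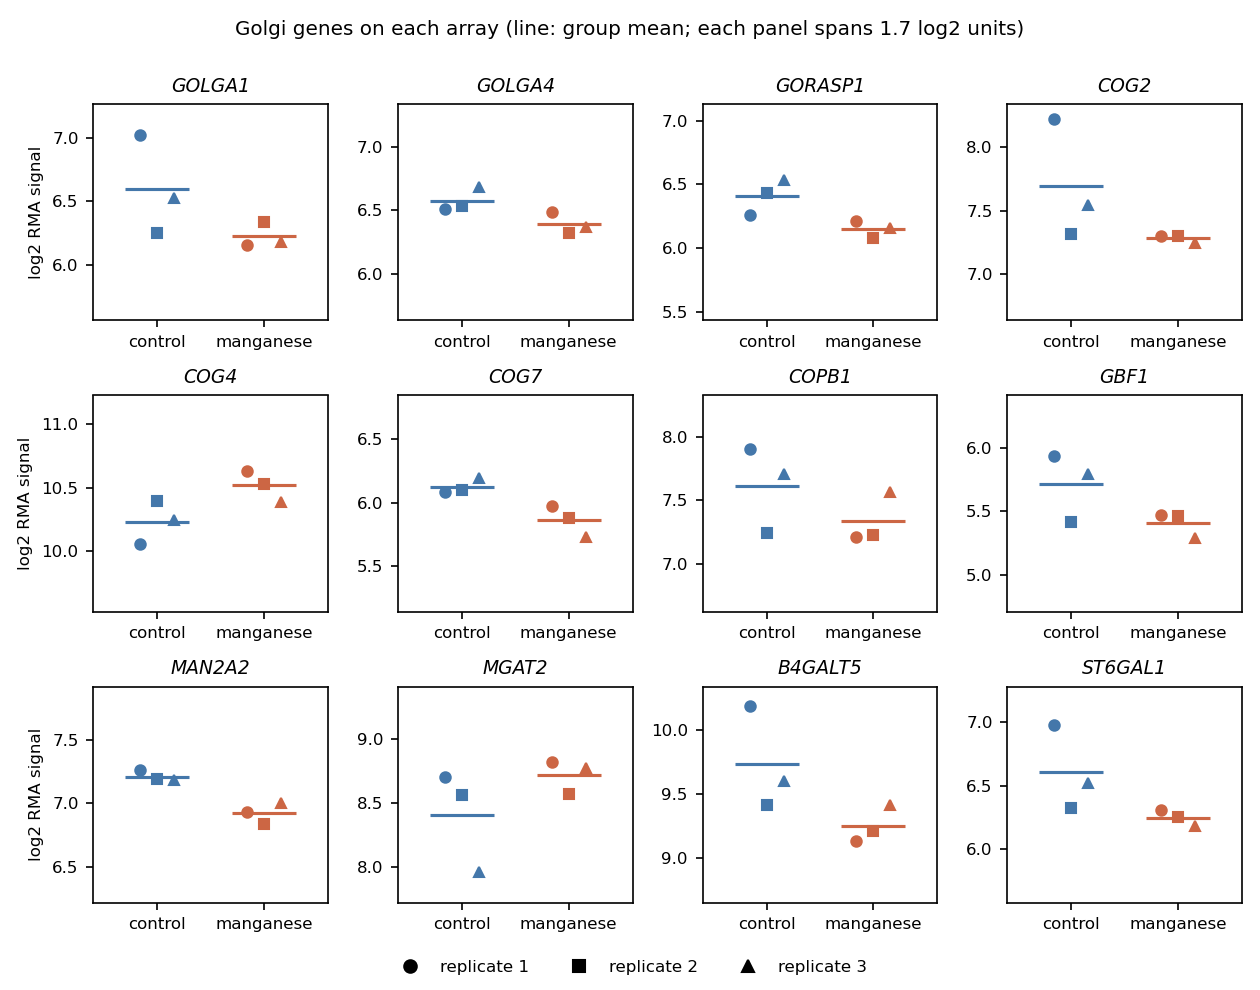
Log2 signal on each array for the 7 Golgi genes whose groups did not overlap and the 2 genes of smallest p in each role (12 genes in all), with points for arrays, symbols for replicate numbers and lines for group means. MAN2A2 and COG7 show tight controls above the manganese arrays, while in COG2, B4GALT5, ST6GAL1 and GOLGA1 control 1 stands above all other arrays.

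The enzymes that trim and branch N-glycans gave the smallest p-value among the Golgi genes, although 3 of the 4 tested were higher and none passed. MAN2A2, a mannosidase of the medial Golgi that opens the way to complex N-glycans, read 7.26, 7.19 and 7.18 in control and 6.93, 6.84 and 7.004 in manganese. All controls lay above all manganese arrays by more than the spread of either group (control 7.21 ± 0.045 and manganese 6.92 ± 0.08, SD, n = 3). The log2 change was -0.29 with an SE of 0.10, a 1.22-fold difference (unadjusted p = 0.0234, limma adjusted p = 0.333), and it was -0.26 against control 2. The difference was seen only by the brightest probe set. The other 2 passing probe sets both gave 0.03, so the direction depends on the probe set.

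MGAT2, which adds the second antenna, had the highest log2 change of the Golgi genes. It read 8.70, 8.56 and 7.95 in control and 8.82, 8.57 and 8.77 in manganese, where control 3 was low and the other controls lay near the manganese arrays. Its change was 0.32 (SE 0.20, limma adjusted p = 0.517), 0.46 without control 1, 0.16 against control 2 and 0.09 without control 3. MGAT1, which starts the first antenna, differed by 0.04 (-0.21 to 0.29). MAN1A1, an earlier mannosidase, differed by 0.07 (-0.23 to 0.38), with -0.19 at its other passing probe set. MAN1A2, MAN2A1 and MGAT5 had no probe set above the filter, with their brightest probe sets between 3.34 and 3.62, 2.68 and 3.15, and 3.56 and 3.87.

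Among the genes for chain extension, sialylation, the start of O-glycans and sugar supply, 6 of 8 were lower and none passed. B4GALT5, which adds galactose and makes lactosylceramide, read 10.19, 9.42 and 9.61 in control and 9.13, 9.21 and 9.41 in manganese. Its groups were separated by a very small gap between control 2 and manganese 3, and control 1 was far above the rest. The change was -0.49 (SE 0.20, unadjusted p = 0.0406, limma adjusted p = 0.372), the largest drop among the 36 genes, and -0.16 against control 2. Its other passing probe set gave -0.09. ST6GAL1, which caps N-glycans with sialic acid, read 6.97, 6.33 and 6.52 in control and 6.31, 6.25 and 6.18 in manganese. Control 2 lay just above manganese 1, and the change was -0.36 (SE 0.17, limma adjusted p = 0.413) against -0.08 with control 2 alone. Both passing probe sets of ST6GAL1 were negative, at -0.36 and -0.44.

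The galactosyltransferase B4GALT1, a classic manganese-dependent enzyme, read 7.02, 7.15 and 7.41 in control and 7.15, 7.15 and 7.16 in manganese, a change of -0.04 (-0.33 to 0.24) and of -0.00 against control 2. GALNT1 and GALNT2, which start mucin-type O-glycans and also use manganese, differed by -0.07 (-0.50 to 0.36) and -0.02 (-0.28 to 0.24). The sialyltransferase gene ST3GAL4 differed by 0.24 (-0.13 to 0.61), with control 1 at 6.76 below the other 5 arrays (7.09 to 7.38), and by -0.06 against control 2. SLC35A1, the carrier of CMP-sialic acid into the Golgi, differed by 0.08 (-0.36 to 0.52) and by 0.39 against control 2. SLC35A2, the carrier of UDP-galactose, differed by -0.07 (-0.36 to 0.22) and by -0.28 against control 2.

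**Figure D4:**
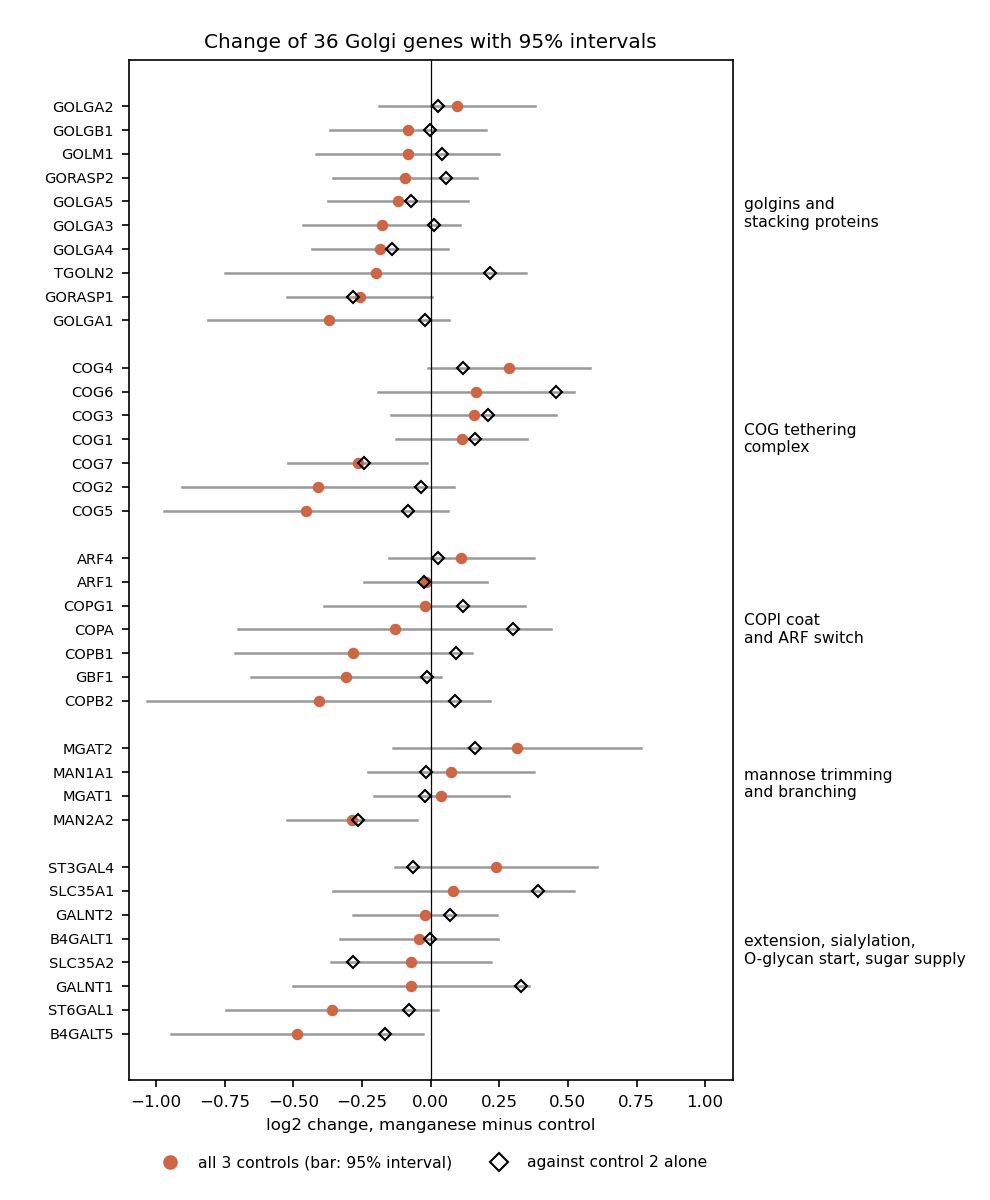
Log2 change, manganese minus control, of the 36 Golgi genes by role, as filled points with 95% intervals from limma, and as open diamonds against control 2 alone. All intervals cross 0 except those of COG7, MAN2A2 and B4GALT5, and the diamonds of COPB2, COPA, TGOLN2 and COG2 lie well to the right of their points.

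Several probe sets read the same gene in part of the list, and they often differed. Of the 26 Golgi genes with more than 1 passing probe set, 11 had probe sets of opposite sign or more than 0.5 apart. They were GOLGA3, GOLM1, GORASP1, TGOLN2, GBF1, MAN1A1, MAN2A2, B4GALT1, GALNT1, GALNT2 and SLC35A2. The COG2, ST6GAL1, GOLGA4 and COG4 probe sets kept 1 sign each, and the second COG2 probe set gave -0.58. Of the probe sets standing for the 36 genes, 10 carry the suffix by which Affymetrix marks probes shared among transcripts and 6 the suffix for probes that may cross-match, among them those of GORASP1, COG4, COG7 and B4GALT5. The part of other transcripts in these signals was not tested.

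**Figure D5:**
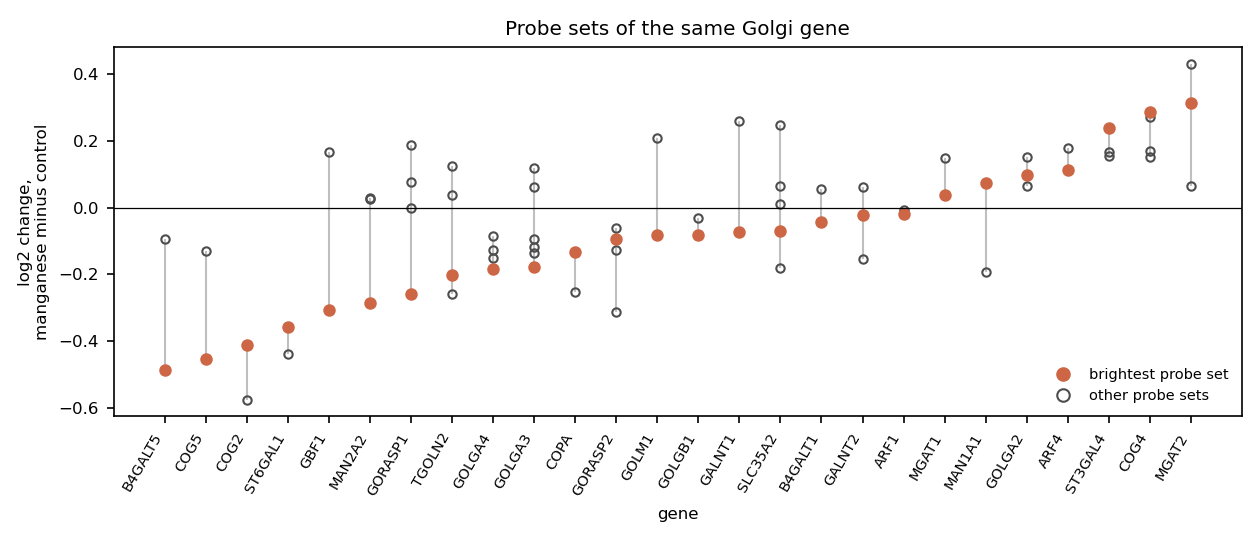
Log2 change of each passing probe set (points) for the 26 Golgi genes read by more than 1, with the brightest probe set filled and a line over the range. For MAN2A2 the filled point at -0.29 stands apart from the others at 0.03, whereas both ST6GAL1 points are negative.

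The wider secretory pathway gave no call either. Of 158 other genes of coats, cargo receptors, tethers, SNARE proteins, glycosylation enzymes, Golgi carriers and their regulators, 137 were tested and 0 passed the limma test. At an unadjusted p under 0.05 there were 11 (8.03%), 9 of them lower, against 12.8% of all genes tested. With 1 array left out the count of other pathway genes ran from 6 to 24, and that of all genes moved too. It was 6 without manganese 1 (832 of all 13407 genes), 7 without control 3 (1223 of all genes) and 24 without control 2 (3010 of all genes). The median change was -0.02, with 63 genes higher and 74 lower. SCFD1, a partner of SNARE proteins between the endoplasmic reticulum and the Golgi, had the smallest p and read 5.89, 5.78 and 5.87 in control and 5.22, 5.24 and 5.38 in manganese, a change of -0.57 (SE 0.10, limma adjusted p = 0.128) and of -0.50 against control 2. TRAPPC3, a core subunit of the TRAPP tether, read 8.11, 8.06 and 8.02 in control and 7.61, 7.68 and 7.40 in manganese, a change of -0.50 (SE 0.11, limma adjusted p = 0.188). GOSR2, a SNARE protein of the cis-Golgi, read 8.31, 8.50 and 8.57 in control and 8.06, 7.87 and 8.05 in manganese, a change of -0.47 (SE 0.12, limma adjusted p = 0.217). In SCFD1 and TRAPPC3 the gap between the groups was wider than the range within either, and in GOSR2 it was narrower than the range of the controls. Against control 2 TRAPPC3 was at -0.49 and GOSR2 at -0.51, and the 5 passing GOSR2 probe sets ran from -0.49 to 0.02.

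By group, 3 of the 16 Golgi carriers, 12 of the 28 tethers, 14 of the 24 glycosylation enzymes and 10 of the 17 cargo receptors tested were higher, none past the threshold, where 54.1% of all genes were higher. Without control 1, the highest array for 9 of the carriers, 8 of the 16 carriers, 16 of the 28 tethers, 10 of the 24 enzymes and 11 of the 17 receptors were higher. TRAPPC4, another TRAPP subunit, differed by -0.61 and by -0.32 against control 2. In the COPII coat, which carries cargo out of the endoplasmic reticulum, SEC24B differed by -0.65 and SEC16A by -0.36. Against control 2 they were at -0.46 and -0.19. SEC23A, of the inner layer of that coat, read 7.61, 7.44 and 6.73 in control and 7.72, 7.62 and 7.91 in manganese, without overlap. Its change of 0.49 (SE 0.22, limma adjusted p = 0.405) was the highest of the 137 genes, and it was 0.31 against control 2. The UDP-sugar carrier gene SLC35B4 differed by -0.76, with control 1 at 9.43 above the other controls (8.31 and 8.47), and by -0.34 against control 2. SLC35B1 differed by -0.44 and by -0.04 against control 2, and the polysialyltransferase gene ST8SIA2 by -0.46 and by -0.02. In the other direction ARF6, a GTPase of the cell surface and endosomes, differed by 0.41 (limma adjusted p = 0.288) with non-overlapping groups. Against control 2 ARF6 was at 0.25, and its 3 passing probe sets ran from 0.03 to 0.41. C1GALT1C1, the chaperone of the core O-glycan galactosyltransferase, differed by 0.46 and by 0.62 against control 2. The cargo receptor genes TMED4 and TMED1 differed by 0.19 and 0.46, the latter by -0.03 against control 2. CREB3L4, a relative of CREB3, differed by 0.25, and MBTPS1, a protease that activates such factors, by -0.31. Against control 2 they were at 0.11 and -0.10. Of the remaining genes of smallest p in their group, COPZ2 differed by 0.26 and TMED3 by 0.36. Against control 2 they were at 0.08 and -0.11. ARCN1 differed by -0.35, STX18 by -0.27, GOSR1 by -0.41, GALNT7 by -0.33 and SLC39A7 by -0.29. Against control 2 these were at -0.06, -0.18, -0.12, -0.05 and -0.32, in that order. Control 1 was the highest array in ARCN1, STX18, GOSR1 and GALNT7, but not in SLC39A7. Of the 89 other pathway genes with more than 1 passing probe set, 40 had probe sets of opposite sign or more than 0.5 apart. Among the 40 were GOSR2, SLC35B4, TMED4, TMED3 and ARCN1.

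ATP2C1 and TMEM165, genes of Golgi proteins tied to manganese supply, did not pass the test, and neither did GOLIM4, whose protein responds to the metal. ATP2C1, the pump that fills the Golgi with calcium and manganese, read 7.71, 6.32 and 6.77 in control and 6.70, 6.43 and 7.18 in manganese. With control 1 the highest and control 2 the lowest array, its change was -0.16 with all controls and 0.45 against control 2. TMEM165, a Golgi membrane protein needed for manganese-dependent glycosylation, differed by -0.07 (limma adjusted p = 0.886) and by -0.26 against control 2. GOLIM4, a Golgi protein known to be sent to lysosomes when manganese is high, differed by 0.05 and at 4.39 in control was near the 40th percentile. SLC35A3, which carries UDP-N-acetylglucosamine rather than the metal, was too dim to be tested.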

How the data were processed

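The values are log2 signals of 49395 probe sets as deposited, and the submitters' processing notes name Affymetrix Expression Console and RMA. That method subtracts background, forces a common distribution on the arrays and summarizes probes, so a shift shared by most genes is removed. For its version and a genome build, nothing is given in the sources used here. The 102 Affymetrix control probe sets were kept apart. Genes came from the platform annotation, updated through RefSeq (0 symbols changed), and 44988 probe sets had 1 symbol, 1832 several, and 2473 are unnamed here. Probe sets above the 40th percentile of their array on at least 3 of 6 arrays were kept (29871), and the brightest stood for a gene. limma 3.58.1 in R 4.3.3 (lmFit, eBayes, group as the only term) was fitted to all 13407 genes, two-sided, and p-values were adjusted by Benjamini-Hochberg over all of them. The fit was tested on simulated data with independent noise in each gene. Those data held no shift shared across the genes of an array, so the check does not cover such a shift. Precision is limited by the 6 arrays.

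The members and lists were chosen with earlier results of these data known. All 40 genes may be named. Values on each array were given for genes without overlap and for the 2 of smallest p in each role, and for COPB2, COPA, COG5, TGOLN2, ARF1, ARF4 and B4GALT1, added after their values were seen, as were the promoter windows of genes outside that rule. Other pathway genes were named by smallest p, 3 a subgroup, beside 5 fixed ones. Alternatives were a filter at the 60th percentile, no filter, a trended robust variance, median-centred arrays, means of probe sets, a replicate block, control 2 alone, and each array left out.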

Additional observations from a re-analysis of the deposited data

How the results depend on the processing

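0 Golgi genes and 0 other pathway genes passed the limma test under every alternative run, and the lowest adjusted p of a Golgi gene ran from 0.102 (without control 2) to 0.797 (without manganese 1). The count over all genes was 19, and 6 with the replicate block, 5 against control 2 alone and 0 to 43 with 1 array left out, while the others gave 15 to 25. The labels number the replicates in both groups but do not say whether same-numbered arrays were paired. Deviations of same-numbered arrays correlated at -0.30, 0.15 and -0.27, which cannot settle it. Each replicate number is on 1 array of each group, so the replicate block could not alter any log2 change. The same Golgi changes under the block are therefore no check of their size or sign. With the block 1 Golgi gene had an unadjusted p under 0.05, against 1404 of all 13407 genes. Against control 2 alone 18 Golgi genes were higher and the median was 0.0054, against 11 and -0.08, and with 1 array left out these ran from 11 to 15 and from -0.14 to -0.05. With no filter 5 of the 39 Golgi genes with a probe set of their own had an unadjusted p under 0.05, against 2101 of all 18132 genes.

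Of the 36 Golgi genes 16 kept their sign under every alternative that tested them, and the 60th percentile filter left 31 of them. Signs turned against control 2 alone for GOLGA3 (0.012), GOLM1 (0.041), GORASP2 (0.055), TGOLN2 (0.21), COPA (0.30), COPB1 (0.092), COPB2 (0.090), COPG1 (0.12), MAN1A1 (-0.015), MGAT1 (-0.021), ST3GAL4 (-0.063), GALNT1 (0.33), GALNT2 (0.070), TMED1 (-0.030), TMED3 (-0.11) and ATP2C1 (0.45). They turned with means of probe sets for GOLM1 (0.063), GORASP1 (0.0010), MAN1A1 (-0.060), B4GALT1 (0.0066), GALNT1 (0.094) and SLC35A2 (0.014). With 1 array left out the sign turned within these ranges: GOLM1 -0.17 to 0.070, TGOLN2 -0.41 to 0.097, COPA -0.35 to 0.17, MGAT1 -0.0086 to 0.090, GALNT1 -0.27 to 0.078, GALNT2 -0.067 to 0.061, SLC35A1 -0.073 to 0.23, SLC35A2 -0.14 to 0.035, COPG1 -0.094 to 0.11, ARF1 -0.046 to 0.0073, MAN1A1 -0.0084 to 0.17, B4GALT1 -0.13 to 0.065, GOLGA2 -0.0049 to 0.17, GOLGB1 -0.15 to 0.011, ATP2C1 -0.47 to 0.22, TMEM165 -0.27 to 0.030 and GOLIM4 -0.012 to 0.11. The cause was not tested. Control 2 alone leaves 1 control, assumed to vary like the manganese arrays. COG6 and GOLIM4 lay near background, which limits their changes.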
